A study of Mus musculus with 30 samples.

Results

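Smooth muscle cells ring the arterioles of the brain. Described here are 10 genes known from their contractile machinery: Acta2, Tagln, Cnn1, Lmod1, Myh11, Des, Ldb3, Synpo2, Pln and Casq2. Casq2 and Synpo2 stood apart from the other 8 in these data, as described further on. Which cells of the vessels gave each signal was not tested. The 10 genes were chosen by name, with earlier results of these data known. Counts of members set beside those of all genes are therefore descriptions. Each was followed through the 21 probe sets that the array annotation paired with that gene alone, and the brightest probe set over all arrays stood for the gene. All 10 passed the filter on low signal (a log2 signal above 4 on 3 or more arrays), as did 11243 of the 18194 genes covered.

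The arrays held RNA of microvascular fragments of mouse brain, which are short vessel pieces with their attached cells, in 8 groups of genotype and region. The ret mutants were pdgfbret/ret mice (4 arrays, 7 to 10 months old), whose platelet-derived growth factor B (PDGF-B) lacks the stretch that retains it at the cell surface on both alleles, and the ret controls were pdgfbret/+ heterozygotes (4 arrays, 8 to 10 months old) that therefore carried 1 such allele themselves. Both were labelled C57/B6/J, with no region named. The R26P mutants were Tie2Cre, R26P+/0, pdgfb-/- mice, which live on a human PDGF-B transgene switched on by Cre in endothelium, and the R26P controls were R26P+/0, pdgfb+/+ mice with the same transgene silent and no Cre, both on a mixed C57/SV129 background. Cerebrum and cerebellum were sampled in each (4 arrays per group). The labels give these mice as 1 year old in one field and 2 months in another. Wild type mice (C57/B6/J Notch3+/+, 2 months) gave 3 cerebellum and 3 cerebrum arrays, which had been normalized separately and were set only against each other.

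Smooth muscle contracts when calcium lets myosin pull on actin filaments. Acta2, Tagln, Cnn1 and Lmod1 make or dress the thin filament, Myh11 is the motor, and Des, Ldb3 and Synpo2 belong to the scaffold that anchors filaments. Pln and Casq2 act at the sarcoplasmic reticulum, the internal calcium store. Serum response factor binds sites called CArG boxes and, together with myocardin, drives smooth muscle transcription. Such boxes can lie close to a gene's start, further upstream or inside the gene. In bulk RNA of vessels, fewer smooth muscle cells and less RNA per cell cannot be told apart.

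The promoters of the members were read to see which carry a CArG box close to the start site. RefSeq windows (GRCm38.p6) were at hand for 8 of the 10 members, in 9 windows, and the 250 bases before each start were searched. The box was taken as CC and GG around a core of 6 A or T letters, which reads alike on both strands. A looser form allowed 1 C or G in the core. The Acta2 window (chr19:34255374-34255623, minus strand) held 2 boxes of the looser form, CCCTATATGG ending 74 bases and CCTTGTTTGG ending 24 bases before the start. The Ldb3 window (chr14:34588682-34588931, minus strand) held 1 box of the strict form, CCATTTATGG, ending 25 bases before the start, and the second Ldb3 window overlaps it and holds the same box. These 2 windows are shown because the other members' windows (Cnn1, Des, Pln, Casq2, Synpo2 and Lmod1) held neither form, which says nothing of sites outside the 250 bases, and the boxes are in capitals.
Acta2: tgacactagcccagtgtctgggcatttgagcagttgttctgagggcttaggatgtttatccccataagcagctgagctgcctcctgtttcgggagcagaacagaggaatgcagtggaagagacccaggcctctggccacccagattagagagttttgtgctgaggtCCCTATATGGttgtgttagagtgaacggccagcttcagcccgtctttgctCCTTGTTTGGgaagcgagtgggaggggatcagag
Ldb3: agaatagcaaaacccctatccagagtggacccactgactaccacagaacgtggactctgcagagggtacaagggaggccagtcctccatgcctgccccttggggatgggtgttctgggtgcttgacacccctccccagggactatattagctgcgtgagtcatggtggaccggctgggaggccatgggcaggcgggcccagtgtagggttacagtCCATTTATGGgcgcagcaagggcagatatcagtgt
Of all 32851 RefSeq promoter windows of this length, 1.47% held the strict form and 7.24% the looser one, and 0.548% held 2 or more of the looser form. A match of letters is a description of the window.

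A few facts of the arrays bear on the values below. Pdgfb signal was 5.98 ± 1.58 in R26P mutant cerebrum against 12.66 ± 0.17 in R26P control cerebrum, and 5.53 ± 1.32 in R26P mutant cerebellum against 12.35 ± 0.20 in R26P control cerebellum (SD, n = 4 each), while the ret allele keeps the transcript (12.17 ± 0.34 in ret mutants and 11.85 ± 0.19 in ret controls). Growth hormone (Gh), a pituitary transcript, exceeded 8 on 9 arrays, among them ret mutants 1, 2 and 4 and no ret control. Gabra6, a receptor subunit of cerebellar granule neurons, was 2.21 on the cerebellum array of R26P mutant 3, so the region labels of that mouse are unsettled. Xist went against the sex label on all 4 ret control arrays. Endothelial markers averaged 12.1 to 12.9 on every array, whereas 11 of 13 striated muscle markers did not pass the filter. Among these were Acta1, Myh1 and Ckm at or near the lowest value of the scale, and Actc1, which reached 4.69 in R26P mutant cerebellum. The 2 that passed were Mylpf, with arrays from 6.45 to 7.82, and Myl2, with group means from 3.19 to 3.87.

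**Figure D1:**
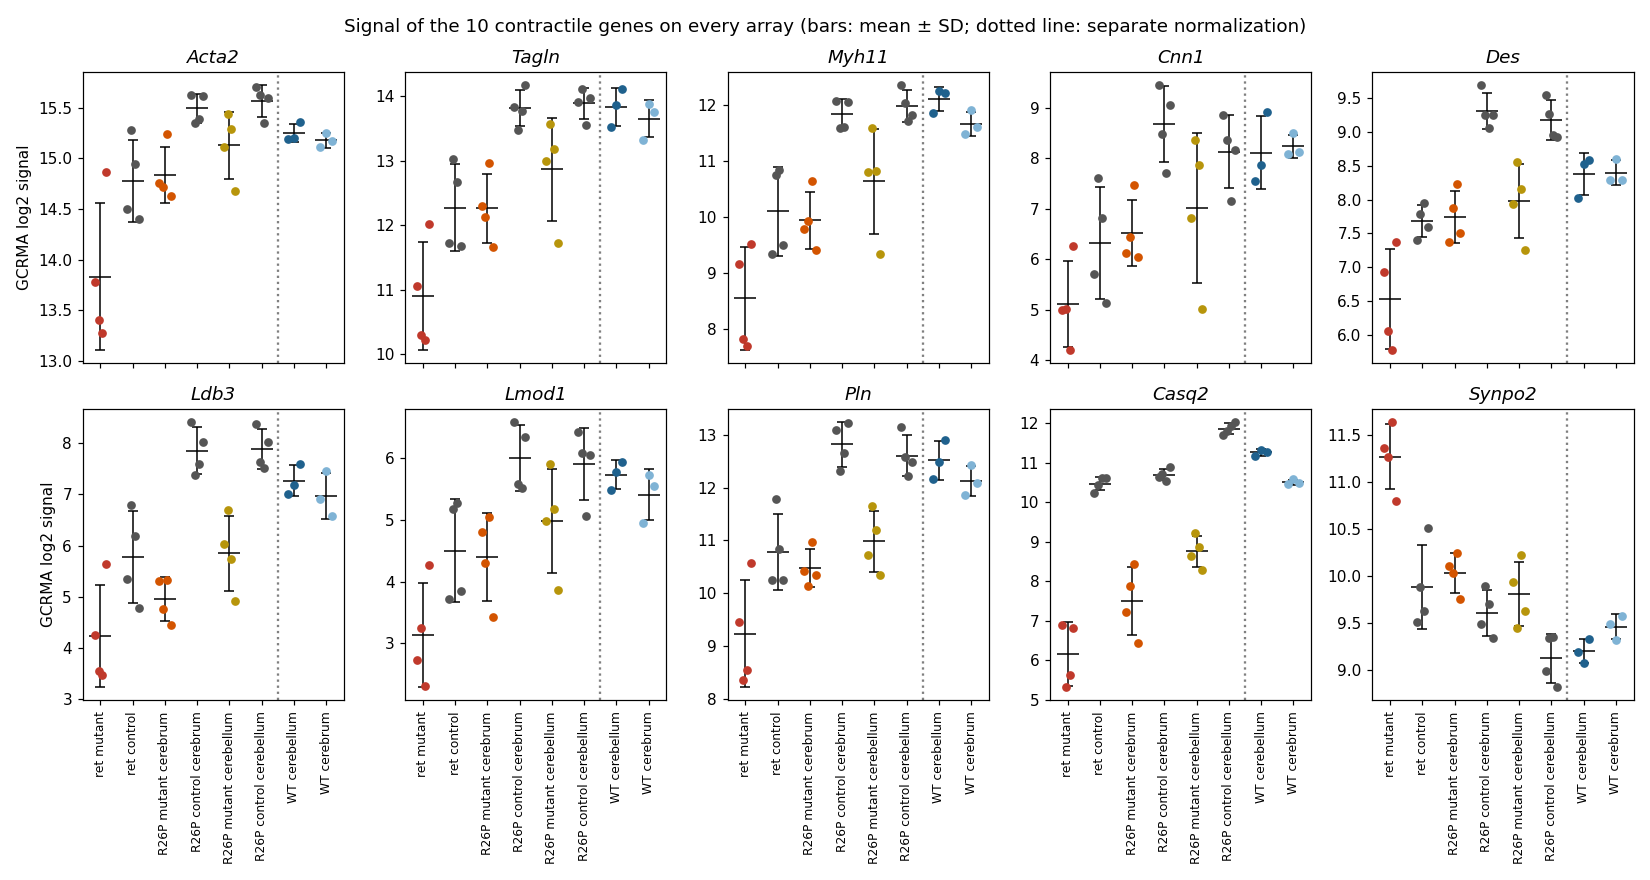
GCRMA log2 signal of the brightest probe set of each of the 10 genes on every array, by group, with mean and SD (4 arrays per group, 3 for wild type right of the dotted line, which were normalized separately). Casq2 separates mutants from controls without overlap in both models, Synpo2 is highest in ret mutants, and the other genes have lower means in mutants than in their controls.

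In ret mutants, Casq2 fell 19.8-fold, Synpo2 rose 2.61-fold, and the other 8 genes had lower means without passing the test. The members' median log2 change was −1.37, beside 0.01 over all genes tested. With limma's moderated test and Benjamini-Hochberg adjustment over all 11243 genes, 1 member passed as lower and 1 as higher at an adjusted p under 0.05. Among all genes tested, 8.63% passed as lower and 8.00% as higher. The groups did not overlap for 3 members, Des and Casq2 below and Synpo2 above the ret controls. Among all genes, 11.8% lay wholly below and 11.7% wholly above.

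Casq2 encodes calsequestrin 2, which holds calcium inside the store. Its signal was 6.90, 5.32, 5.63 and 6.81 in ret mutants, against 10.24, 10.44, 10.60 and 10.60 in ret controls. Every ret mutant lay more than 3 units under every ret control, and the ret controls were tightly grouped. The log2 change was −4.31 ± 0.37 (SE, n = 4 each, adjusted p = 0.000479, limma).

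Pln encodes phospholamban, a brake on the pump that refills the store. Its signal was 9.45, 8.36, 8.54 and 10.57 in ret mutants, against 10.26, 11.78, 10.83 and 10.25 in ret controls. Ret mutant 4 reached the range of the ret controls and the other ret mutants did not. The change of −1.55 ± 0.55 did not pass (adjusted p = 0.0965, limma).

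Acta2, the actin of the smooth muscle thin filament, gave 13.78, 13.41, 13.27 and 14.87 in ret mutants, against 14.50, 15.28, 14.94 and 14.41 in ret controls. Again ret mutant 4 alone lay among the ret controls, and the change was −0.95 ± 0.37 (adjusted p = 0.121, limma). The Acta2 probe set lies near the top of the scale, since the brightest value on any array was between 16.1 and 16.6. Whether this limited the size of its change was not tested.

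The other thin filament genes had lower means as well. Tagln, the actin-binding protein transgelin, ranged from 10.22 to 12.01 in ret mutants and from 11.68 to 13.02 in ret controls (change −1.38 ± 0.48, adjusted p = 0.0909, limma). Cnn1, calponin, which restrains myosin on actin, ranged from 4.20 to 6.26 in ret mutants and from 5.14 to 7.62 in ret controls (change −1.20 ± 0.62, adjusted p = 0.226, limma). Lmod1, leiomodin, which starts new actin filaments, ranged from 2.31 to 4.27 in ret mutants and from 3.72 to 5.27 in ret controls (change −1.37 ± 0.53, adjusted p = 0.119, limma). The Lmod1 mean of 3.14 in ret mutants lay under the filter level of 4, so the size of its change rests on low signals. The groups overlapped for all 3 genes, and ret mutant 4 was the highest ret mutant for each.

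Myh11, the smooth muscle myosin heavy chain, was at 9.16, 7.81, 7.70 and 9.51 in ret mutants, against 9.34, 10.74, 10.83 and 9.49 in ret controls. Ret mutant 4 overlapped 2 ret controls by a small margin, and the change of −1.55 ± 0.54 did not pass (adjusted p = 0.0915, limma).

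Of the scaffold genes, Des, the intermediate filament desmin, was at 6.93, 6.06, 5.77 and 7.37 in ret mutants, against 7.41, 7.78, 7.95 and 7.60 in ret controls. The groups were separated by a narrow gap, and the change of −1.15 ± 0.35 did not pass (adjusted p = 0.061, limma). Ldb3, a PDZ and LIM domain protein known best from the Z-disc of striated muscle, was at 4.26, 3.56, 3.48 and 5.63 in ret mutants, against 5.34, 6.79, 6.19 and 4.78 in ret controls. Ret mutant 4 lay within the ret control range, and the change was −1.54 ± 0.60 (adjusted p = 0.118, limma). Ret mutants 2 and 3 lay under the filter level of 4 for Ldb3.

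Synpo2 encodes synaptopodin 2, an actin-bundling protein of muscle, and ran the other way. Its signal was 11.36, 11.27, 11.63 and 10.80 in ret mutants, against 9.51, 9.88, 9.63 and 10.51 in ret controls. The groups did not overlap, with ret mutant 4 the lowest ret mutant and ret control 4 the highest ret control. The change was 1.39 ± 0.25 (adjusted p = 0.0103, limma).

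One array weighed on these calls. Ret mutant 4 was the highest of its group for 8 of the 10 genes and the lowest for Synpo2. Without it, 7 of 10 members passed (Acta2, Tagln, Des, Ldb3, Pln and Casq2 as lower and Synpo2 as higher), where 17.2% of all genes passed in either direction. This was the highest count among the fits that left out 1 array. The array was picked for its place among the members, and leaving it out was bound to enlarge their changes. The count is therefore no test of them. Without the 3 ret mutants with Gh, which leaves 1 ret mutant, the Synpo2 change was 1.75 and its call was lost (adjusted p = 0.0885, limma), and Casq2 kept its call at −4.84 (adjusted p = 0.00158, limma). That fit takes the lone array to vary as the others do. The mean of 4 neuronal markers was 4.38, 3.82, 3.17 and 6.11 in ret mutants, highest on ret mutant 4, and 2.97 to 3.35 in ret controls. Of these markers, Map2 had a lower mean in ret mutants (3.98) than in ret controls (4.80), and Rbfox3, Snap25 and Syt1 had higher ones. Among ret mutants, array 4 also had the highest mean of pericyte (8.50), perivascular fibroblast (8.10) and astrocyte (9.06) markers. It had the lowest mean of endothelial markers (12.58). The part of all these markers in the members' values was not tested.

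In R26P mutant cerebrum, 9 of the 10 contractile genes fell, by 1.58-fold for Acta2 to 9.16-fold for Casq2, and Synpo2 did not pass. Among all genes tested, 10.3% passed as lower. The members' median change was −1.75, beside 0.01 over all genes. The same 9 genes lay wholly below the R26P controls, as did 13.0% of all genes.

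Casq2 was at 7.23, 7.89, 8.43 and 6.45 in R26P mutant cerebrum, against 10.64, 10.72, 10.55 and 10.88 in R26P control cerebrum. The gap between the groups exceeded 2 units, and R26P mutant 4 was the lowest (change −3.20 ± 0.38, adjusted p = 0.00144, limma). Pln was at 10.42, 10.14, 10.98 and 10.35 in R26P mutant cerebrum, against 13.09, 12.31, 12.65 and 13.22 in R26P control cerebrum. Both groups were compact and far apart (change −2.34 ± 0.25, adjusted p = 0.000843, limma).

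Myh11 was at 9.79, 9.93, 10.63 and 9.42 in R26P mutant cerebrum, against 12.07, 11.58, 11.60 and 12.05 in R26P control cerebrum. The motor gene was thus lower on every mutant array (change −1.88 ± 0.26, 3.69-fold, adjusted p = 0.0025, limma). Ldb3 was at 5.30, 4.76, 5.33 and 4.45 in R26P mutant cerebrum, against 8.41, 7.38, 7.60 and 8.02 in R26P control cerebrum. It showed the widest gap of the scaffold genes (change −2.89 ± 0.28, 7.43-fold, adjusted p = 0.000576, limma).

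Des ranged from 7.37 to 8.23 in R26P mutant cerebrum and from 9.07 to 9.70 in R26P control cerebrum, a change of −1.57 ± 0.21 (adjusted p = 0.00245, limma). In the thin filament, Tagln changed by −1.56 ± 0.27 (adjusted p = 0.00773, limma) and Cnn1 by −2.15 ± 0.44 (adjusted p = 0.014, limma). Acta2 and Lmod1 passed less firmly. Acta2 was at 14.76, 14.72, 15.24 and 14.63 in R26P mutant cerebrum, against 15.62, 15.35, 15.39 and 15.62 in R26P control cerebrum, with a narrow gap between the groups (change −0.66 ± 0.15, adjusted p = 0.0194, limma). Lmod1 ranged from 3.43 to 5.04 in R26P mutant cerebrum and from 5.52 to 6.58 in R26P control cerebrum (change −1.61 ± 0.40, adjusted p = 0.0274, limma).

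Synpo2 was at 10.11, 10.03, 10.25 and 9.75 in R26P mutant cerebrum, against 9.49, 9.89, 9.70 and 9.34 in R26P control cerebrum. R26P control 2 lay above R26P mutant 4, and the change of 0.43 ± 0.15 did not pass (adjusted p = 0.0875, limma). Without R26P mutant 3, whose region labels are unsettled, the count was again 9, where 17.3% of all genes passed in either direction. Without the arrays with Gh, which leaves 2 per group, 4 members passed (Myh11, Cnn1, Pln and Casq2), where 2.11% of all genes passed in either direction. Acta2 lost its call without R26P mutant 1 or 2 or without R26P control 1 or 4 (adjusted p 0.0511 to 0.0566), and Lmod1 without R26P mutant 2 or R26P control 1 or 4 (adjusted p 0.0671 to 0.0733, limma).

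In R26P mutant cerebellum, Casq2, Pln, Ldb3 and Des fell, and the thin filament genes and Myh11 had lower means that did not pass. The 4 calls stand beside 8.70% of all genes called lower, and the members' median change was −1.16, beside 0.00 over all genes. The groups did not overlap for 6 members, Myh11, Des, Ldb3, Pln and Casq2 below and Synpo2 above. Among all genes, 11.5% lay wholly below and 11.3% wholly above.

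Casq2 was at 8.63, 9.23, 8.88 and 8.30 in R26P mutant cerebellum, against 11.71, 11.79, 11.92 and 12.02 in R26P control cerebellum. The 2 groups were again wide apart (change −3.10 ± 0.19, 8.59-fold, adjusted p = 0.000112, limma). Pln was at 10.73, 11.66, 11.20 and 10.34 in R26P mutant cerebellum, against 13.14, 12.58, 12.22 and 12.48 in R26P control cerebellum. All mutant arrays lay under all control arrays (change −1.62 ± 0.31, adjusted p = 0.0127, limma).

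Ldb3 was at 6.02, 6.70, 5.74 and 4.92 in R26P mutant cerebellum, against 8.38, 7.63, 7.51 and 8.03 in R26P control cerebellum, a change of −2.04 ± 0.37 (adjusted p = 0.0106, limma). Des changed by −1.20 ± 0.28 (adjusted p = 0.0262, limma), and this call was lost without R26P mutant 1 or 3 or without R26P control 1 or 2 (adjusted p 0.0558 to 0.0703). The scaffold gene Synpo2 was at 9.93, 9.45, 10.22 and 9.62 in R26P mutant cerebellum, against 8.99, 9.34, 9.35 and 8.82 in R26P control cerebellum. Its mutant arrays lay above the control arrays by a small gap, and the change of 0.68 ± 0.20 missed the threshold (adjusted p = 0.0529, limma). It passed without R26P mutant 2 (adjusted p = 0.0446). Without R26P mutant 3, which is also the mutant cerebellum array with Gh, 3 members passed (Casq2, Pln and Ldb3), where 9.94% of all genes passed in either direction.

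Myh11 was at 10.80, 11.58, 10.81 and 9.34 in R26P mutant cerebellum, against 12.35, 12.03, 11.71 and 11.81 in R26P control cerebellum. R26P mutant 4 was far lower than its group, and the change of −1.34 ± 0.43 did not pass (adjusted p = 0.074, limma); without R26P mutant 2 it was −1.66 and passed (adjusted p = 0.0407). Acta2 changed by −0.44 ± 0.17, Tagln by −1.03 ± 0.37, Cnn1 by −1.12 ± 0.72 and Lmod1 by −0.92 ± 0.46, with adjusted p of 0.103 to 0.325 (limma).

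**Figure D2:**
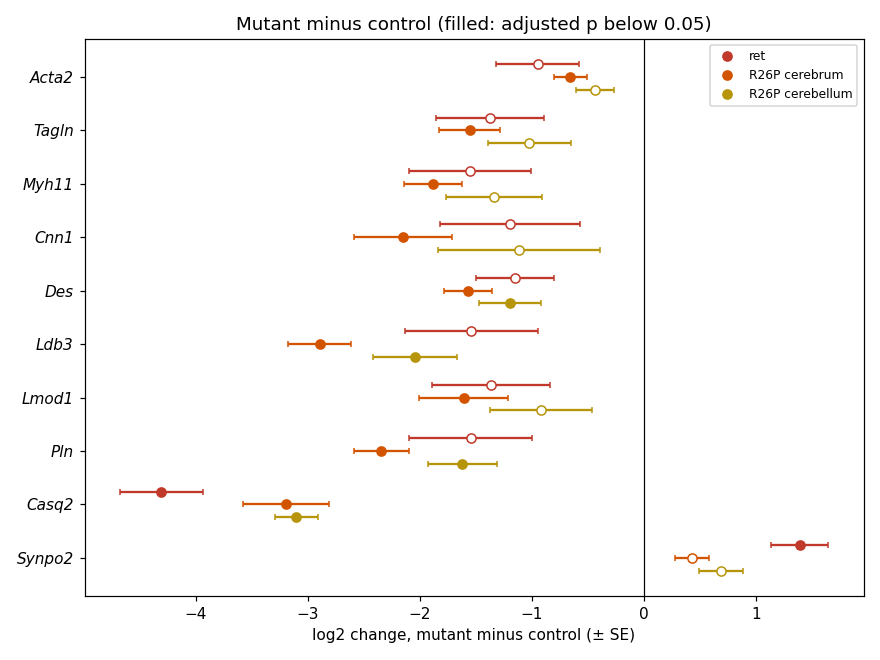
Log2 change, mutant minus control, with standard error for each gene in the ret, R26P cerebrum and R26P cerebellum comparisons; filled points passed an adjusted p of 0.05. Casq2 lies at −4.31, −3.20 and −3.10, and Synpo2 is the gene with positive values.

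The size of the effect was then compared between regions and between models. The R26P effect in cerebellum minus the R26P effect in cerebrum was above 0 for all 10 members, from 0.09 for Casq2 to 1.03 for Cnn1. The members' median was 0.54, beside −0.01 over all genes. The 10 signs are not independent, since 8 of the members varied together within groups (correlations of 0.73 to 0.94). The Casq2 value fell below 0 when certain single arrays were left out. Arrays of the R26P mutant mouse with unsettled region labels enter on both sides of this difference. No member passed, where 0.116% of all genes did (limma). An unadjusted p under 0.05 was reached by 0 of the 10 members and by 309 of the 11243 genes tested (limma). Positive values here mean a smaller fall in cerebellum or, for Synpo2, a larger rise. The comparisons share no arrays between regions, but the arrays of 1 mouse number deviated together, as described further on.

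For the ret effect minus the R26P effect in cerebrum, no member passed, where 3.35% of all genes did (limma). An unadjusted p under 0.05 was reached by 1 of the 10 members (Synpo2) and by 2449 of the 11243 genes tested (limma). The difference of effects was −1.11 ± 0.56 for Casq2 (adjusted p = 0.262), which fell in both models, and for Ldb3 and Synpo2 it was 1.35 ± 0.69 (adjusted p = 0.266) and 0.96 ± 0.31 (adjusted p = 0.0945, limma). A negative value means a larger fall in the ret model. The Synpo2 difference passed without ret control 4 (adjusted p = 0.0364). The models differ in age, background and the region sampled as well, and these cannot be told apart from the genotype.

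Between regions, Casq2 was higher in cerebellum in mice with normal Pdgfb. Synpo2 was lower in cerebellum on every numbered pair as labelled, a difference that passed in R26P controls when the pairing was used. The pair of R26P mutant 3, whose region labels are unsettled, differed by −0.02, and its sign would reverse if those labels were exchanged. In wild type Casq2 was at 11.18, 11.33 and 11.26 in cerebellum, against 10.45, 10.57 and 10.48 in cerebrum. The groups were far apart beside their spread (change 0.76 ± 0.07, 1.69-fold, n = 3 each, adjusted p = 0.0139, limma), and it was 1 member called of 10, where 1.78% of all genes passed as higher in cerebellum. Leaving out WT cerebrum 1, WT cerebellum 2 or WT cerebellum 3 ended the call (adjusted p 0.0648 to 0.0748). Synpo2 differed by −0.30, −0.24 and −0.25 on the 3 wild type pairs, and this did not pass as unpaired groups (adjusted p = 0.283) or with the pair number as a block (adjusted p = 0.112, limma). The remaining 8 members changed by −0.12 (Cnn1) to 0.44 (Myh11) without passing.

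In R26P controls the Casq2 values given above were higher in cerebellum by 1.16 ± 0.10 (2.24-fold, adjusted p = 0.00422, limma), again 1 member of 10, where 0.889% of all genes passed as higher. Without the arrays with Gh the change was 1.10 (adjusted p = 0.0602). Synpo2 differed by −0.50, −0.56, −0.35 and −0.53 on the 4 pairs, a change of −0.48 ± 0.16 that did not pass as unpaired groups (adjusted p = 0.245) and passed with the pair number as a block (adjusted p = 0.027, limma). The remaining 8 members changed by −0.54 (Cnn1) to 0.15 (Myh11).

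In R26P mutants no member and 0 genes of all tested (0.00%) passed between regions. An unadjusted p under 0.05 was reached by 1 of the 10 members (Casq2) and by 621 of the 11243 genes tested (limma). Casq2 was higher in cerebellum by 1.26 ± 0.43 (adjusted p = 0.731 as unpaired groups, limma), and the cerebrum array of R26P mutant 3 overlapped the cerebellum arrays. On the 4 pairs Casq2 differed by 1.40, 1.34, 0.44 and 1.85. It passed under no alternative, the replicate block included (lowest adjusted p 0.222, limma). Without R26P mutant 3 the Casq2 change was 1.53 (adjusted p = 0.531, limma). Synpo2 differed by −0.18, −0.58, −0.02 and −0.13 on the 4 R26P mutant pairs, and this did not pass with the pair number as a block (adjusted p = 0.404, limma).

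**Figure D3:**
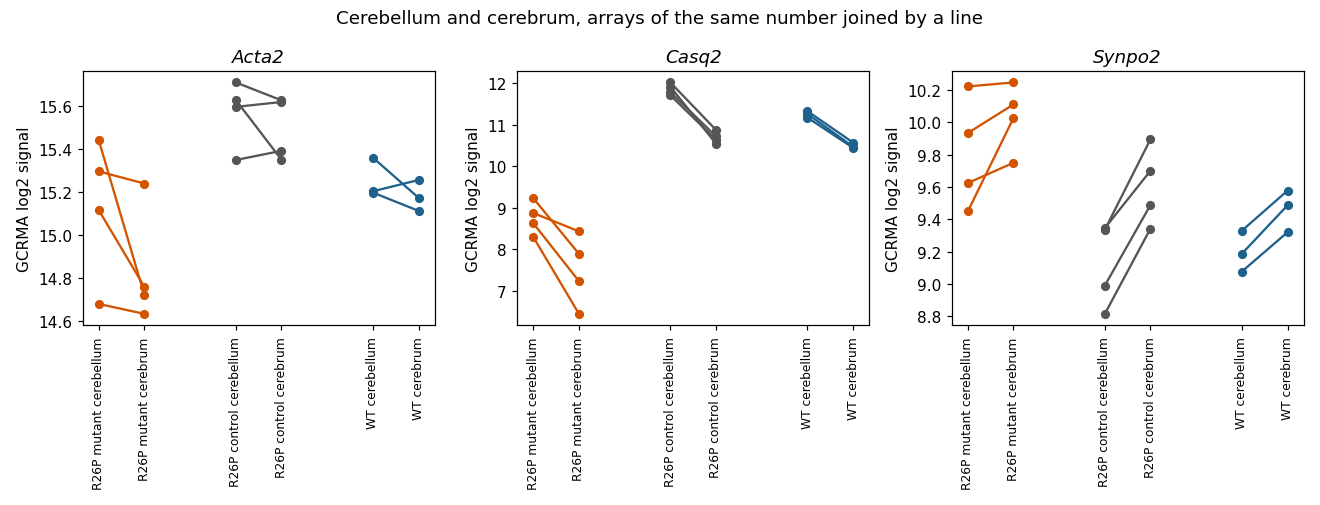
GCRMA log2 signal of Acta2, Casq2 and Synpo2 in cerebellum and cerebrum of R26P mutants, R26P controls and wild type, with arrays of the same number joined. As labelled, Casq2 is higher and Synpo2 lower in cerebellum in every joined pair. The pair of R26P mutant 3 (0.44 for Casq2 and −0.02 for Synpo2) has unsettled region labels. The Acta2 lines run both ways in R26P controls and wild type.

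Within groups the members varied together from array to array. Over the 24 ret and R26P arrays, deviations from the group mean of the 8 members other than Casq2 and Synpo2 correlated at 0.73 to 0.94 (median 0.87 over 28 pairs). Casq2 correlated with those 8 at 0.48 to 0.74, and Synpo2 at −0.48 to −0.23. These correlations are descriptions over arrays that share groups, and regions of the same mice. Casq2 and Synpo2 were set aside because they stood apart in these same data, so the correlations are no test of that split. They stand beside no figure for other genes.

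The spread followed particular arrays. In R26P mutant cerebrum, array 3 was the highest for 10 of 10 members and array 4 the lowest for 8. In R26P mutant cerebellum, array 2 was the highest for 9 and array 4 the lowest for 9. R26P mutant 4 thus stood low in both regions. The mean of 7 pericyte markers, described further on, was highest and lowest on the same arrays. It was 9.41 on array 3 and 7.57 on array 4 in R26P mutant cerebrum. In R26P mutant cerebellum it was 10.51 on array 2 and 8.81 on array 4. The endothelial mean was instead lowest on array 1 in cerebrum (12.46) and on array 3 in cerebellum (12.66). R26P mutant 3 had the highest Pdgfb of its groups (8.01 in cerebrum and 7.51 in cerebellum). Its Gh was 14.89 in cerebrum and 14.75 in cerebellum. Whether these bear on the members' values was not tested. Cnn1 showed the widest deviations, 1.99 units below its group mean on the cerebellum array of R26P mutant 4.

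**Figure D4:**
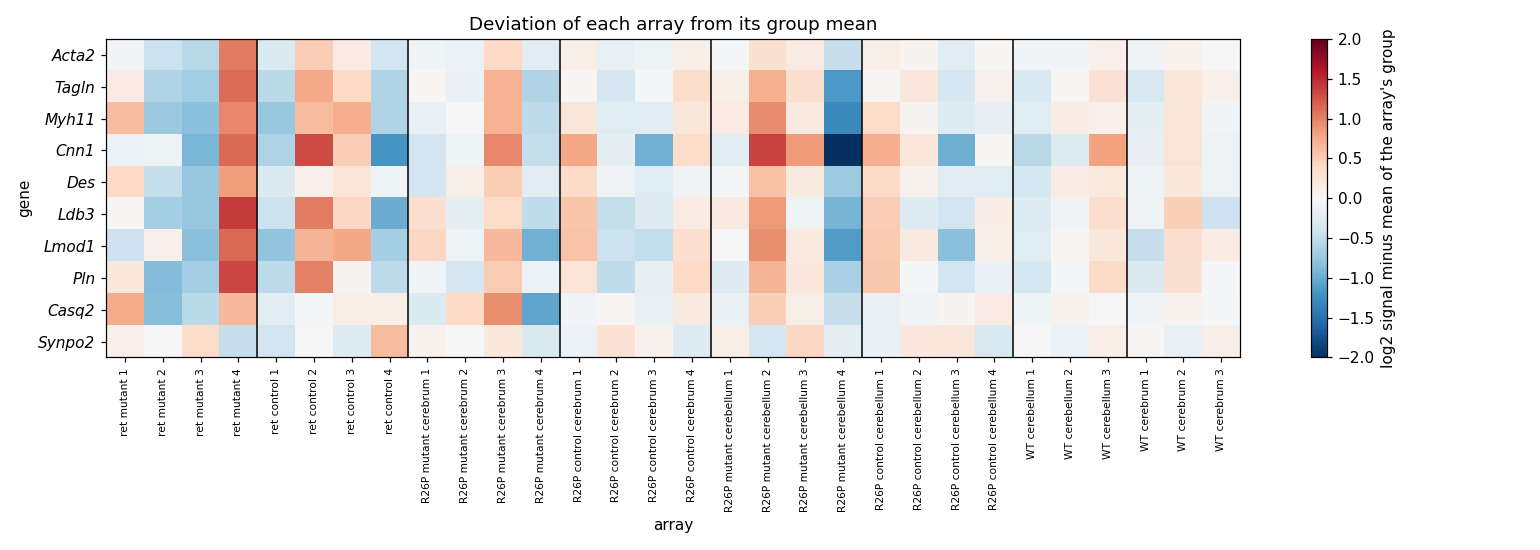
Difference between each array's log2 signal and the mean of its group for the 10 genes (rows) on the 30 arrays (columns), with black lines between groups. Columns are mostly of a single colour from Acta2 to Pln, as on ret mutant 4 and on the cerebellum array of R26P mutant 4, whereas the Synpo2 row often has the opposite sign.

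Of the 10 genes, 6 had further probe sets, and 16 of the 21 probe sets exceeded 4 on at least 3 arrays. The 3 probe sets of Pln ran in parallel: in R26P mutant cerebrum they changed by −2.34 ± 0.25, −2.24 ± 0.34 and −3.45 ± 0.47, and each passed (adjusted p 0.00108 to 0.00511 over 18851 probe sets, limma). In ret mutants they changed by −1.55, −1.80 and −2.14, and none of them passed.

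The 4 Synpo2 probe sets were all higher in ret mutants, by 1.39, 1.22, 0.79 and 1.07, of which 3 passed (adjusted p 0.0119, 0.0417 and 0.0409, limma) and 1452879_at did not (adjusted p = 0.0571). They parted in R26P mutant cerebrum. There 1435399_at was at 8.39, 9.02, 8.70 and 8.61 in R26P mutants, against 9.50, 9.25, 9.27 and 9.24 in R26P controls. This probe set fell, by 0.64 with an adjusted p of 0.0213 (limma), while the brightest one, 1441206_at, was 0.43 higher (adjusted p = 0.0993) and the remaining probe sets changed by 0.02 and 0.22. Which transcript each probe set reads is not annotated in the files. The Synpo2 values given for R26P mutant cerebellum and between regions are those of 1441206_at. Over the alternatives run, the Synpo2 change went from 0.008 to 0.52 in R26P mutant cerebrum and from 0.46 to 0.80 in R26P mutant cerebellum. Between regions it went from −0.33 to −0.13 in wild type and from −0.57 to −0.29 in R26P controls.

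**Figure D5:**
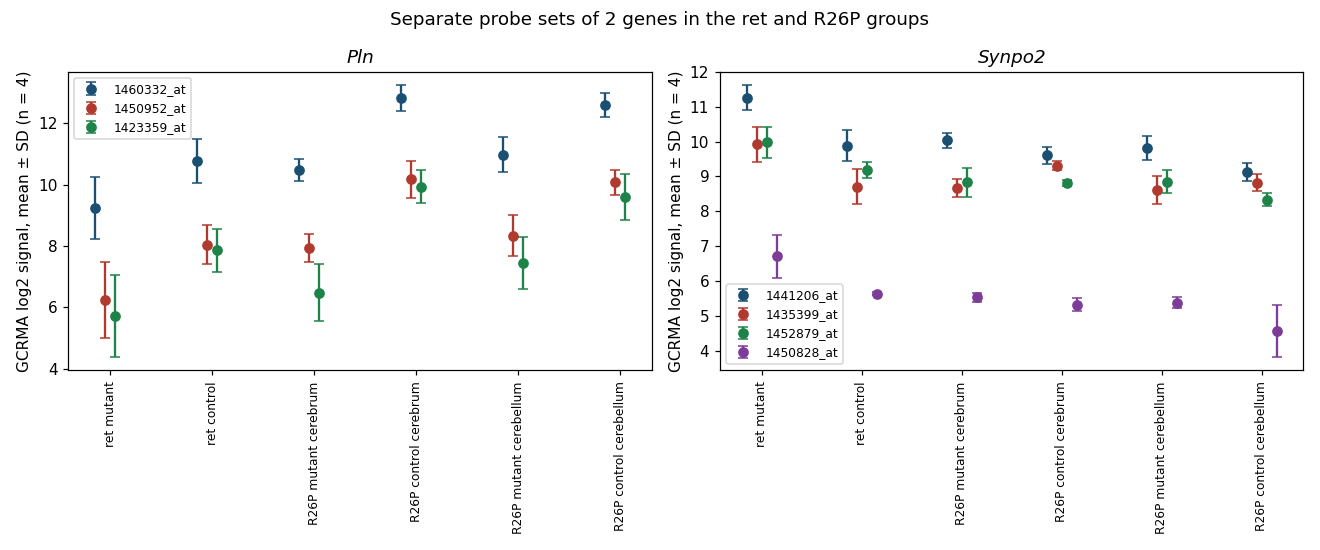
Mean and SD (n = 4) of the GCRMA log2 signal of each Pln and Synpo2 probe set above 4, by group. The 3 Pln probe sets share 1 profile, whereas for Synpo2 the probe set 1435399_at lies lower in R26P mutant cerebrum than in R26P control cerebrum and the others do not.

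The profile over the 6 ret and R26P groups was compared with that of every gene tested, as the root mean square difference of centred group means. Tagln and Lmod1 were each other's nearest gene (0.08), followed for both by Pdlim1 and Pdlim3 (0.10 to 0.11). Pln stood at rank 3 for Cnn1 (0.21), and the nearest member ranked between 5 and 6 for Myh11 (Tagln), Des (Lmod1), Ldb3 and Pln. Acta2, whose group means spanned 1.74 units, was nearest to Lmna (0.04), and its nearest member was Des at rank 1005. This measure counts the size of changes as well as their shape, so a gene of smaller changes ranks far from genes of larger ones. Within groups, Acta2 deviations correlated at 0.83 to 0.94 with those of the members other than Casq2 and Synpo2.

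Casq2 was nearest to Lin7a (0.13), Cspg4 (0.21) and Higd1b (0.22), and its nearest member, Ldb3, came at rank 83 (0.92). Cspg4, the proteoglycan NG2 of mural cells, averaged 4.99 ± 1.35 in ret mutants against 8.98 ± 0.36 in ret controls, and 6.27 ± 0.53 in R26P mutant cerebrum against 9.91 ± 0.12 in R26P control cerebrum (SD, n = 4 each). In cerebellum it averaged 7.63 ± 0.50 in R26P mutants and 10.61 ± 0.15 in R26P controls. Synpo2 was nearest to Stard5 (0.12) and Sytl4 (0.15).

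Markers of other vessel cells moved as well. The counts of this paragraph and of the gene lists after it stand beside the calls among all genes tested, of which 8.63% passed as lower and 8.00% as higher in ret mutants, 10.3% and 8.35% in R26P mutant cerebrum, and 8.70% and 6.94% in R26P mutant cerebellum. Of 8 pericyte markers 7 were tested, and all 7 fell in ret mutants, R26P mutant cerebrum and R26P mutant cerebellum (medians −3.87, −3.64 and −2.98). Their mean lay between 7.48 and 8.50 on ret mutant arrays against 11.57 to 12.07 on ret control arrays, from 7.57 to 9.41 in R26P mutant cerebrum against 12.42 to 12.73 in R26P control cerebrum, and from 8.81 to 10.51 in R26P mutant cerebellum against 13.19 to 13.32 in R26P control cerebellum. Between regions, 3 of the 7 were higher in cerebellum in wild type, where 1.78% of all genes were, and 4 of the 7 in R26P controls, where 0.889% were. Cspg4, Pdgfrb and Rgs5 of this list are also known from smooth muscle. Of 5 perivascular fibroblast markers tested, 1 fell in ret mutants and 4 in each R26P region, and the single call in ret mutants cannot be read against the 8.63% of all genes. Of 5 astrocyte markers tested, 4 fell in ret mutants, 5 in R26P mutant cerebrum and 4 in R26P mutant cerebellum. Of 6 endothelial markers tested, none passed in ret mutants, 1 rose in R26P mutant cerebrum and 2 rose in R26P mutant cerebellum, with medians of 0.13, 0.11 and 0.37. Cdh5, the cadherin of endothelial junctions, was higher by 0.44 ± 0.11 in R26P mutant cerebrum (adjusted p = 0.0331) and by 0.56 ± 0.10 in R26P mutant cerebellum (adjusted p = 0.0111, limma). Tie1, an endothelial receptor, was higher by 0.49 ± 0.08 in R26P mutant cerebellum (adjusted p = 0.00787, limma). These changes run opposite to those of most members, and their part in the members' values was not tested. The part of other mural cells in the members' values was not tested.

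Related genes of smooth muscle give the setting. Of 21 tested genes of the contractile apparatus and its anchors, 7 fell and 2 rose in ret mutants, 7 fell and 1 rose in R26P mutant cerebrum, and 5 fell and 0 rose in R26P mutant cerebellum. The genes that rose make up a share of the list close to or below that of all genes called higher. The list medians were −0.56, −0.25 and −0.11. Myl9, the regulatory light chain of smooth muscle myosin, fell in all 3 comparisons (−1.81 ± 0.44, −1.54 ± 0.25 and −1.09 ± 0.26). Cald1, caldesmon of the thin filament, did likewise (−1.18 ± 0.24, −1.10 ± 0.14 and −0.94 ± 0.14). Itga8, an integrin subunit of the cell's anchorage, fell 4.52-fold in R26P mutant cerebrum and 3.01-fold in R26P mutant cerebellum. Tpm1, a tropomyosin, rose in ret mutants by 1.33 ± 0.16 (adjusted p = 0.00187, limma), with a mean of 13.08 in ret mutants and 11.75 in ret controls.

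Around Pln and Casq2, 14 genes of the calcium store and membrane excitability were tested. Of these, 4 fell in ret mutants and none rose, 10 fell and 1 rose in R26P mutant cerebrum, and 9 fell and 1 rose in R26P mutant cerebellum. Atp2a2, the pump that Pln restrains, fell by 0.56, 0.49 and 0.45 on the log2 scale, with means of 13.24 in ret mutants against 13.80 in ret controls. Kcnmb1, the beta subunit of the calcium-activated potassium channel, fell in both R26P regions, by 3.17 ± 0.34 in cerebrum and by 3.02 ± 0.26 in cerebellum. Its R26P mutant cerebrum mean of 3.43 (arrays from 2.98 to 4.21) lay under the filter level of 4 but above the bottom of the scale. Cacna1c, the pore of the L-type calcium channel, fell in all 3 comparisons. It averaged 3.24 in ret mutants against 5.56 in ret controls. The lowest ret mutant array was at the bottom of the scale (2.16), so the change of −2.32 is a lower bound of the fall. In R26P mutant cerebrum Cacna1c averaged 3.80, with arrays from 2.62 to 4.78, against 5.10 to 6.77 on the R26P control cerebrum arrays. The change of −2.20 ± 0.52 there rests on low signals. In R26P mutant cerebellum Cacna1c changed by −2.53 ± 0.53. Hrc, a calcium-binding protein of the store, averaged 3.71 in R26P mutant cerebrum against 5.33 in R26P control cerebrum. Its lowest value on these arrays was 3.66, shared by all 4 ret mutants, so the fall of 1.62 is a lower bound as well. Orai1, a channel of calcium entry found in many cells, was the gene that rose (0.53 and 0.49 in the R26P regions), 1 call of 14 beside 8.35% and 6.94% of all genes.

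Control of myosin phosphorylation and relaxation gave 14 tested genes, of which 6, 10 and 9 fell in ret mutants, R26P mutant cerebrum and R26P mutant cerebellum, and none rose. Gucy1b1 and Gucy1a1, the subunits of the receptor for nitric oxide, fell 8.12-fold and 4.97-fold in ret mutants and 10.2-fold and 7.04-fold in R26P mutant cerebrum. Mrvi1, a target of the cGMP kinase at the calcium store, fell 5.69-fold in ret mutants. Ppp1r14a, an inhibitor of myosin phosphatase, fell in both R26P regions (−1.97 ± 0.28 in cerebrum and −1.68 ± 0.46 in cerebellum).

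Of 15 tested regulators of smooth muscle transcription, 8 fell and 1 rose in ret mutants, and 7 fell and 2 rose in each R26P region. The 1 or 2 genes that rose are too few to set against the 6.94% to 8.35% of all genes called higher. Myocd, myocardin, averaged 5.57 in R26P mutant cerebrum against 7.38 in R26P control cerebrum and fell by 1.81 ± 0.45 on the log2 scale (adjusted p = 0.0278, limma). Its change did not pass in ret mutants (−1.21 ± 0.67, adjusted p = 0.251) or in R26P mutant cerebellum (−1.06 ± 0.37, adjusted p = 0.094, limma). Srf, serum response factor, fell by 0.39 in ret mutants and by 0.39 in R26P mutant cerebellum, and its change of −0.32 ± 0.12 in R26P mutant cerebrum did not pass (adjusted p = 0.112, limma). Heyl, Tbx18, Foxs1 and Prrx1, transcription factors of mural cells, fell in all 3 comparisons, Heyl 8.81-fold in ret mutants. Fhl1, a LIM-only protein of muscle, rose 3.42-fold, 3.08-fold and 3.37-fold.

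Of 19 receptors that set smooth muscle tone, 7 were tested. Of these, 3 fell in ret mutants, 4 in R26P mutant cerebrum and 3 in R26P mutant cerebellum, and none rose. P2ry14, a receptor for UDP-sugars, fell 19.5-fold, 14.1-fold and 11.9-fold. Ptger3, a prostaglandin receptor, fell 2.95-fold, 4.32-fold and 2.62-fold. Its mutant means (2.85, 3.55 and 3.43) lay under the filter level of 4, so these sizes rest on low signals. In wild type, Agtr1a, an angiotensin receptor, was lower in cerebellum (log2 change −1.47 ± 0.07), where its mean of 3.91 lay under the filter level. Npr3, the clearance receptor of natriuretic peptides, was higher in cerebellum by 0.92 ± 0.14.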

How the data were processed

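RNA of brain microvascular fragments was measured on 30 Affymetrix arrays. The deposited values are log2 signals that the authors made with GCRMA 2.6.0 in R 2.4.1, per the submitters' processing notes, and they were used as deposited. GCRMA corrects background by probe sequence and applies quantile normalization, so only relative differences between arrays are measured. The 24 ret and R26P arrays share a lowest value of 2.16 and the 6 wild type arrays one of 2.17, which shows separate normalization. The array annotation paired 34958 of 45101 probe sets with 1 gene, 932 with several and 9211 with none.

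Each gene was represented by its probe set of highest mean, kept if above 4 in at least 3 arrays. Groups were taken from the labels and compared with limma 3.58.1 in R 4.3.3 (lmFit, eBayes, two-sided, Benjamini-Hochberg over 11243 genes, threshold 0.05), using only the arrays of the groups in question. Errors of changes are standard errors. Arrays of a group are labelled biological replicates, and their number limits the precision. The procedure was tested on simulated data: genes changed by 1 log2 unit were called in 80%, 74% and 76% of cases in the ret, R26P cerebrum and R26P cerebellum designs, with 4.24%, 3.95% and 3.11% false calls. In the wild type, R26P control and R26P mutant region designs 82%, 82% and 74% were called, with 6.47%, 3.09% and 5.45% false calls. The difference between regional effects gave 62% with 4.86%, and that between models 64% with 8.78%. False calls thus exceeded the aim of 5% in the wild type and R26P mutant region designs and between models.

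Replicate numbers paired the arrays of 1 genotype across regions: deviations from group means of same-numbered arrays correlated at 0.34 to 0.84, each array best with its own number. They did not pair mutants with controls. The members and lists were chosen with earlier results of these data known. Named genes were all members, up to 4 genes of largest change per list and comparison, and the 3 genes of nearest profile; Atp2a2, Srf, Myocd, Orai1 and Fhl1 were added after their values were seen. Alternatives were other filters, probe set rules, priors, renewed normalization, 1 fit of 24 arrays, the replicate block, sex as a covariate, and leaving out arrays singly, those with Gh above 8, or R26P mutant 3. In 60 sets of 4 arrays (10 members, 6 groups), no array stood apart by Dixon's criterion.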

Additional observations from a re-analysis of the deposited data

How the results depend on the processing

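The number of members called in ret mutants, 2, was 8 with all 24 arrays in 1 fit, 1 with the replicate block, and 2 to 7 with 1 array left out, the highest without ret mutant 4. In R26P mutant cerebrum, 9 became 4 without the arrays with Gh above 8. Between wild type regions, 1 became 0 to 1 with 1 array left out. Between R26P control regions, 1 became 0 in the fit of 24 arrays (Casq2 adjusted p = 0.103), 0 without the arrays with Gh, and 2 with the replicate block. For the ret effect against the R26P effect, 0 became 1 with the mean of probe sets (Synpo2 adjusted p = 0.0418) and 0 to 1 with 1 array left out. The pairing by number changed no other call between regions; where numbers do not pair, the block took the Synpo2 call in ret mutants (adjusted p = 0.0683) and those of Acta2, Cnn1 and Lmod1 in R26P mutant cerebrum. The Casq2 difference between regional effects, 0.09, ran from −0.26 to 0.40 with 1 array left out, below 0 without R26P mutant cerebellum 2 (−0.06) or R26P mutant cerebrum 4. Of 742 values of single members under alternatives, 680 kept direction and side of the threshold, 32 lost and 28 gained the call, and 2 changed sign; the causes were not tested. Casq2 passed under every alternative run in the 3 mutant comparisons. Over all genes, calls ran from 919 to 2746 (1870 as reported) in ret mutants, 237 to 2932 (2097) and 1081 to 2402 (1758) in R26P cerebrum and cerebellum, 12 to 350 (238) in wild type, 24 to 475 (132) and 0 to 42 (0) in R26P control and mutant regions, 0 to 29 (13) between regional effects and 127 to 611 (377) between models.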
